A study of Mus musculus with 9 samples.

Results

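Tjp1 encodes ZO-1, a scaffold protein of cell junctions, and F11r, Jam2, Jam3 and Esam encode adhesion proteins of the junctional adhesion molecule (JAM) family. These 5 genes are described here across 9 RNA-seq libraries. They were picked out by symbol, each symbol matched 1 row of the deposited count table, and the table held 39179 gene rows. Tjp1 was picked because earlier results from these libraries placed it among the genes with the lowest unadjusted p between mutant and wild type. Its level was also known to be low in the Cre-negative group. Its values against wild type are therefore a description and carry no test. The other 4 genes were listed beside it as a protein family.

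The libraries were made from LSK cells of C57BL/6 bone marrow, sorted as lacking lineage markers and carrying Sca1 and cKit, a fraction rich in stem and early progenitor cells. The mice were 6 months old. The labels give all of them 5 injections of poly(I:C), which induces the Mx1 promoter that drives Cre in this model. Wild-type mice (Dnmt3a+/+, labelled wt_Mx+) carried Mx1-Cre and gave 3 libraries. Mutant mice (Dnmt3a+/m, labelled cKI_Mx+) carried Mx1-Cre and a conditional mutant allele at the endogenous Dnmt3a locus, and gave 4 libraries. Cre-negative mice (labelled cKI_Cre-, genotype given as Dnmt3a+/-) carried the conditional allele without Cre, and gave 2 libraries. Libraries are named WT, MUT or CN with the number in their title. Cre-negative and wild type thus differ in the allele and in Cre, and these cannot be told apart. The labels do not say whether each library came from a separate animal, so p-values measure the spread between libraries.

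ZO-1 sits under the membrane and ties junction proteins to actin. Through its PDZ domains it binds the cytoplasmic tails of JAM proteins, among others. JAM proteins are single-pass receptors of the immunoglobulin superfamily that pair with each other between cells and with leukocyte integrins. In blood formation several of them are known as surface markers, and ESAM in particular marks haematopoietic stem cells. Dnmt3a encodes a DNA methyltransferase that acts on CpG sites, and methylation was not measured in these libraries.

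Promoter sequence was available for Tjp1 and F11r among the 5 genes. It is shown because CpG is the dinucleotide that the protein targeted in this model methylates. Each line gives the bases from 250 to 51 before the RefSeq start (GRCm38.p6), 5′ to 3′ on the gene's strand, with every CpG in capitals. The Tjp1 window is chr7:65371295-65371494 on the minus strand, and the F11r window is chr1:171437311-171437510 on the plus strand.
Tjp1: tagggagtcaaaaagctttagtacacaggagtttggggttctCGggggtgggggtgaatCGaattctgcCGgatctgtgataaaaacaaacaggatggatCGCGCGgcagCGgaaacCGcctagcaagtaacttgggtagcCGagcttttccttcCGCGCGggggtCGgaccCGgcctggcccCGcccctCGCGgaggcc
F11r: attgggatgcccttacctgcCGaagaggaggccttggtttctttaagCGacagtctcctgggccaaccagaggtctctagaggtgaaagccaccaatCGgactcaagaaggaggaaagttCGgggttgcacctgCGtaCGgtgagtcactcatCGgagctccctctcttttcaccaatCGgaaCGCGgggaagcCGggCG
The Tjp1 window held 17 CpG and the F11r window 12, counting the letters CG, which read the same on both strands. Of 32851 promoter windows of the same 200 bases, 89.1% held at least 1 CpG, and the median was 4. At least 17 were found in 14.0% of windows and at least 12 in 24.3%. The Tjp1 window lies inside the annotated gene, because some of its 7 annotated transcripts start further upstream, and gene counts do not separate these starts.

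Libraries held from 47792306 to 58405879 counts assigned to genes. Levels are given as CPM, gene counts relative to the library total after TMM scaling, which aligns libraries on the bulk of genes. Dnmt3a stood at 148 to 174 CPM in wild type, 153 to 171 in the mutant and 93.5 to 118 in Cre-negative libraries, and gene counts do not separate its alleles. The sort markers Kit (369 to 539 CPM) and Ly6a, which encodes Sca1 (27.2 to 44.2 CPM), were present in every library. Y-linked transcripts summed to more than 1 CPM in 5 libraries and not in the other 4, with both kinds in all 3 groups. The 9 T and NK cell markers summed to 88.9 to 142 CPM, mostly Nkg7 (71.1 to 109.5) and Lck (13.4 to 39.0), while Cd3e did not exceed 0.110 CPM. CN-819 stood apart from the other libraries in erythroid markers. Its 12 erythroid markers summed to 4424 CPM, against 886 to 1206 CPM in the other 8. In stem cell markers both Cre-negative libraries stood apart, on opposite sides. The 12 long-term stem cell markers summed to 999 CPM in CN-819 and 2484 in CN-780, against 1122 to 1768 CPM in wild-type and mutant libraries.

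Tjp1 (ENSMUSG00000030516, chr7:65296165-65527781 of GRCm38, protein-coding) was lower in every library with the conditional allele than in any wild-type library. WT-820, WT-823 and WT-825 stood at 32.2, 48.3 and 27.1 CPM. MUT-824, MUT-827, MUT-829 and MUT-830 stood at 14.3, 12.9, 12.1 and 20.8 CPM. CN-780 and CN-819 stood at 9.16 and 15.1 CPM. The lowest wild-type library was 1.30 times the highest mutant library and 1.79 times the highest Cre-negative library, while the mutant and Cre-negative ranges overlapped. These levels rest on 435 to 2408 counts per library.

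**Figure D1:**
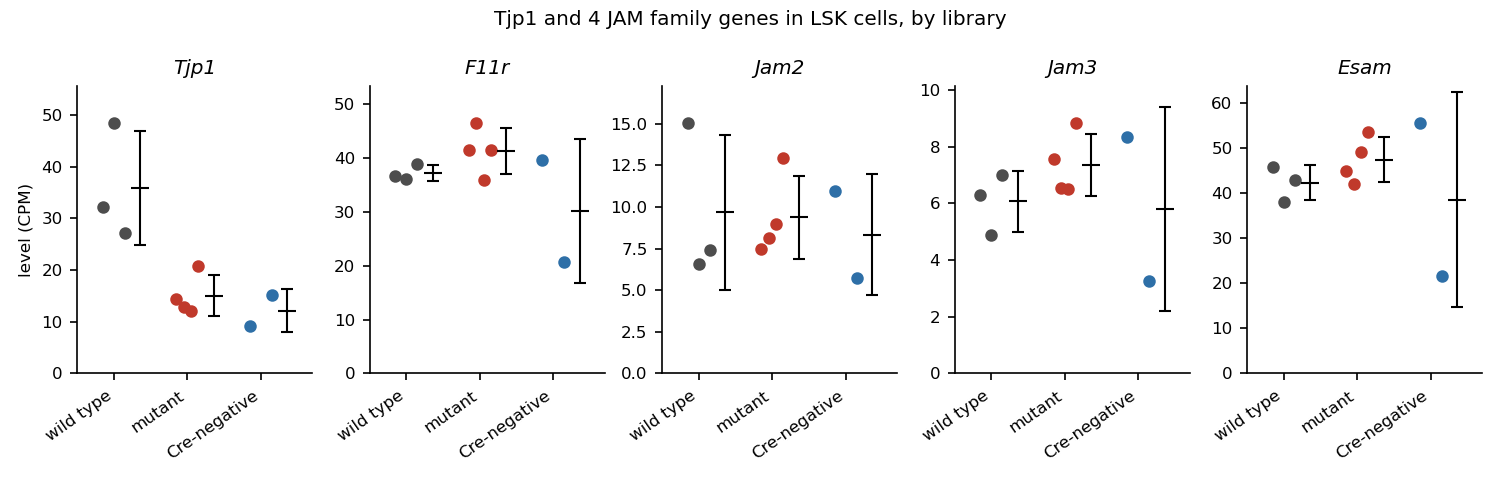
Level of each gene in CPM (vertical axes, each starting at 0) in wild-type, mutant and Cre-negative libraries. Points are libraries, and the bar beside them is the mean ± SD (n = 3, 4 and 2). The 6 Tjp1 points of mutant and Cre-negative libraries lie between 9.16 and 20.8 CPM, below the wild-type points at 27.1 to 48.3, and the groups of the other 4 genes overlap.

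The Tjp1 mean was 35.9 ± 11.1 CPM in wild type (SD, n = 3), 15.01 ± 3.95 (SD, n = 4) in mutant libraries, and 12.2 ± 4.22 in the Cre-negative group (SD, n = 2). The mutant mean was 41.9% and the Cre-negative mean 33.9% of wild type. The fitted log2 fold change was -1.26 (SE 0.25) for mutant against wild type and -1.56 (SE 0.32) for Cre-negative against wild type. Both differences use the same wild-type libraries. Over all 18576 genes tested, 4.15% had every mutant library below every wild-type library, 5.12% had both Cre-negative libraries below, and 0.748% had all 6 below. Tjp1 was chosen for this pattern, so these shares give its setting only. Markers of granulocyte-monocyte progenitors (8 of 8 found, none at 0) were lowest in the 3 wild-type libraries, by a narrow margin. They summed to 1245 to 1611 CPM in wild type, with WT-823 lowest, 1664 to 1901 in the mutant and 1620 and 2190 in the Cre-negative group. Neutrophil markers (8 of 8 found, none at 0) summed to 50.2, 54.4 and 162 CPM in WT-823, WT-820 and WT-825, to 133 to 402 in the mutant, and to 320 in CN-780 and 38.6 in CN-819. All 8 had positive log2 fold changes against wild type, with a median of 1.49 in the mutant and 1.38 in the Cre-negative group. B cell markers were positive for 8 of 9 in the mutant (median 0.90) and 9 of 9 in the Cre-negative group (median 0.67). Their summed levels overlapped, at 194 to 228 CPM in wild type, 188 to 227 in the mutant and 150 and 309 in the Cre-negative group. Of 11 monocyte, macrophage and dendritic cell markers, 8 were positive in the mutant (median 0.405) and 9 in the Cre-negative group (median 0.572). Their sums overlapped too, at 255 to 311 CPM in wild type, 284 to 327 in the mutant and 272 and 346 in the Cre-negative group. Over all genes tested, 45.67% were positive in the mutant and 53.22% in the Cre-negative group. No marker gene of these lists passed in edgeR, which called 0.00% of all genes. The part of these lists in the Tjp1 values was not tested. In bulk RNA, fewer cells with a transcript and less of it per cell cannot be told apart.

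The order of the Tjp1 group means was wild type, mutant, Cre-negative. Mutant and Cre-negative levels were both known to be low when the gene was chosen, so their comparison is a description too. These neighbours in the order did not differ beyond their spread. Their log2 difference was 0.30 (95% interval -0.35 to 0.96, edgeR adjusted p = 0.954 over all genes). The interval allows a mutant level from 0.785 to 1.94 times that of Cre-negative. Between the Cre-negative libraries, Tjp1 was 1.65 times as high in CN-819 as in CN-780.

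Tjp3, a paralog of Tjp1 picked out after the values were seen, encodes the scaffold ZO-3. It averaged 8.91 ± 0.427 CPM in wild type (SD, n = 3), 8.93 ± 1.31 (SD, n = 4) in mutant libraries, and 7.91 ± 3.34 in the Cre-negative group (SD, n = 2). Its log2 fold change in mutant against wild type was 0.003, and the mutant and wild-type ranges overlapped. Per kilobase of exon, wild-type means were 4.59 CPM for Tjp1 and 2.40 for Tjp3. In the mutant Tjp1 stood at 1.92 ± 0.506 and Tjp3 at 2.40 ± 0.353 CPM per kb (SD, n = 4), so that Tjp1 moved from above Tjp3 to a level within their spread.

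F11r (ENSMUSG00000038235, chr1:171437535-171464603) encodes JAM-A, found on leukocytes, platelets, epithelium and endothelium. It stood at 36.6, 36.2 and 38.8 CPM in WT-820, WT-823 and WT-825. MUT-824, MUT-827, MUT-829 and MUT-830 held 41.5, 46.4, 35.99 and 41.5 CPM, and CN-780 and CN-819 held 39.6 and 20.7. The mutant range enclosed the wild-type range, and the low value was CN-819. Group means were 37.2 ± 1.43 (SD, n = 3), 41.3 ± 4.26 (SD, n = 4) and 30.1 ± 13.4 CPM (SD, n = 2).

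Esam (ENSMUSG00000001946, chr9:37528078-37538319) encodes an adhesion molecule of endothelium, platelets and stem cells. WT-820, WT-823 and WT-825 stood at 45.8, 38.1 and 42.8 CPM, and MUT-824, MUT-827, MUT-829 and MUT-830 at 44.8, 42.1, 49.1 and 53.4. CN-780, at 55.4 CPM, was the highest of all libraries, and CN-819, at 21.6, the lowest. Means were 42.2 ± 3.90 in wild type (SD, n = 3), 47.3 ± 4.97 (SD, n = 4) in mutant libraries, and 38.5 ± 23.9 CPM in the Cre-negative group (SD, n = 2).

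Jam2 (ENSMUSG00000053062, chr16:84774123-84825928) encodes JAM-B, which binds JAM-C and the integrin VLA-4. Its wild-type values were 15.01, 6.54 and 7.44 CPM, so that WT-820 held 2.29 times as much as WT-823. The mutant values were 7.45, 8.11, 8.95 and 13.0 CPM in MUT-824, MUT-827, MUT-829 and MUT-830, and the Cre-negative values 10.9 in CN-780 and 5.75 in CN-819. The 3 groups overlapped, with means of 9.66 ± 4.65 (SD, n = 3), 9.37 ± 2.47 (SD, n = 4) and 8.34 ± 3.66 CPM (SD, n = 2).

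Jam3 (ENSMUSG00000031990, chr9:27097384-27155421) encodes JAM-C, a partner of JAM-B and of the integrin Mac-1. It was the lowest of the 5 genes in counts, with 178 to 464 per library, except in MUT-824, where Jam2 had 373 and Jam3 379. Wild-type values were 6.30, 4.90 and 7.003 CPM and mutant values 7.57, 6.54, 6.499 and 8.82, in the library order above. CN-780 held 8.34 CPM and CN-819 held 3.26. Means were 6.07 ± 1.07 (SD, n = 3), 7.36 ± 1.09 (SD, n = 4) and 5.80 ± 3.59 CPM (SD, n = 2). An antisense gene shares 1159 exon bases with Jam3, and no source used here says whether counting used strand. The Jam3 level is uncertain to that extent.

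None of the 4 JAM family genes passed in any of the 3 comparisons in edgeR's quasi-likelihood test, where the share called among all genes was 0.00% each time. None had an unadjusted p under 0.05, and none passed in DESeq2 or limma-voom. In mutant against wild type the log2 differences were 0.15 for F11r (95% interval -0.26 to 0.57), -0.04 for Jam2 (-0.78 to 0.69), 0.28 for Jam3 (-0.36 to 0.92) and 0.17 for Esam (-0.39 to 0.72), each with an edgeR adjusted p of 0.998. The median over all genes was -0.02. The intervals allow a mutant level of 0.834 to 1.48 times wild type for F11r and of 0.584 to 1.61 times for Jam2. The sign of Jam2 was not stable: it was 0.45 without WT-820, the high wild-type library, 0.07 without MUT-824, 0.03 without MUT-827 and 0.34 in limma-voom. No JAM family gene had groups without overlap in any comparison. Such separation was found for 4.15% of all genes with the mutant below wild type and 4.17% above it, for 5.12% and 6.25% with Cre-negative below and above wild type, and for 7.27% and 5.09% with the mutant below and above Cre-negative.

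In Cre-negative against wild type the log2 differences were -0.31 for F11r (95% interval -0.80 to 0.19), -0.21 for Jam2 (-1.09 to 0.67), -0.07 for Jam3 (-0.83 to 0.70) and -0.13 for Esam (-0.79 to 0.53). In mutant against Cre-negative they were 0.46 for F11r (-0.02 to 0.94), 0.17 for Jam2 (-0.67 to 1.01), 0.34 for Jam3 (-0.39 to 1.08) and 0.30 for Esam (-0.33 to 0.93). The edgeR adjusted p was 1 for all 4 genes in the first comparison and 0.915 to 0.979 in the second. EdgeR called 0 of 18576 genes in each comparison, with 585, 960 and 976 genes at an unadjusted p under 0.05 for mutant against wild type, Cre-negative against wild type and mutant against Cre-negative. DESeq2 called 36, 59 and 21 genes (0.194%, 0.318% and 0.113%) and limma-voom with quality weights 30, 0 and 0.

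**Figure D2:**
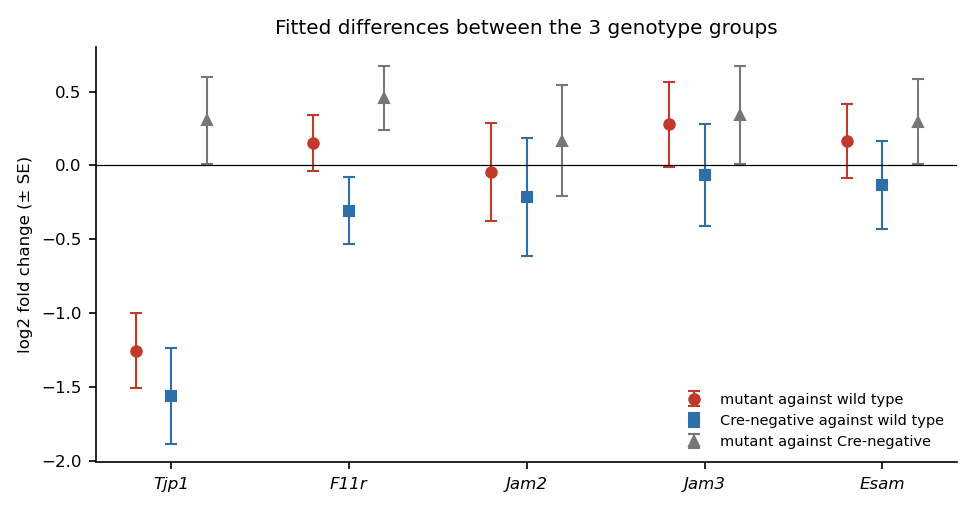
Fitted log2 fold change ± SE (vertical axis) of the 5 genes in the 3 comparisons between genotype groups, from edgeR on all 9 libraries. Tjp1 lies at -1.26 and -1.56 against wild type, by which it was chosen, and the other 4 genes lie between -0.31 and 0.46.

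Per kilobase of exon, a scale on which genes can be compared, F11r and Esam led in every library. In wild type Esam averaged 14.7 ± 1.36 and F11r 14.0 ± 0.535 CPM per kb (SD, n = 3), a difference within their spread, and either gene came first in some libraries. Tjp1 followed at 4.59 ± 1.42, then Jam3 at 1.90 ± 0.335 and Jam2 at 1.60 ± 0.770. Jam2 and Jam3 did not differ beyond their spread there.

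In all 4 mutant libraries Tjp1 held rank 4, below Jam3, while it held rank 3 in all 3 wild-type libraries. This restates the low mutant level for which Tjp1 was chosen. Mutant means were 2.30 ± 0.341 CPM per kb for Jam3 and 1.92 ± 0.506 for Tjp1 (SD, n = 4), a difference within their spread. In CN-780 Tjp1 ranked last, and in CN-819, where the JAM genes were low, it held rank 3. Among F11r, Jam2 and Jam3 alone, F11r made up 75.6% to 83.9% of the summed level per kb in every library. Jam3 made up 9.45% to 13.5% and Jam2 6.43% to 13.6%. The summed level of the 3 genes ranged from 29.7 CPM in CN-819 to 63.3 CPM in MUT-830.

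**Figure D3:**
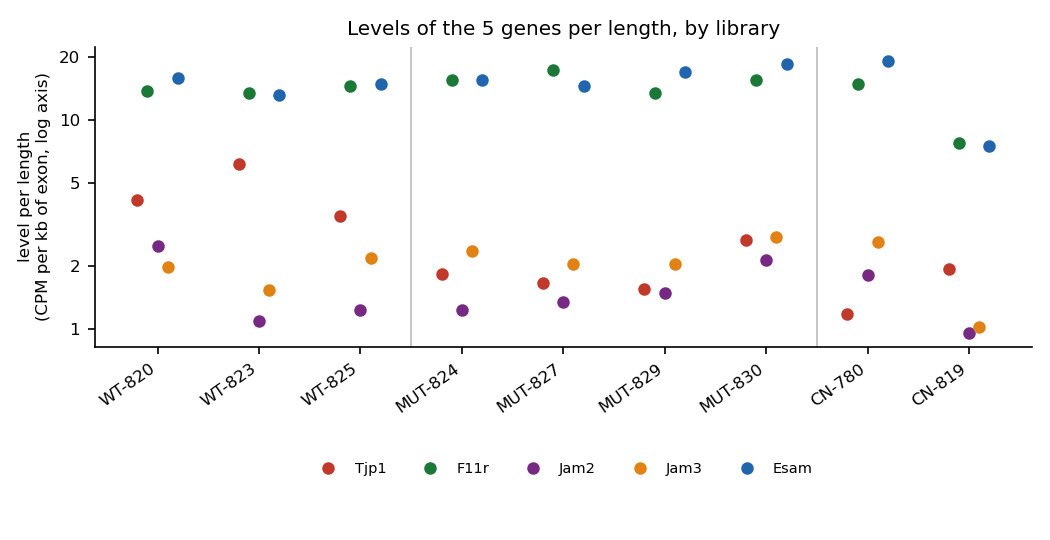
Level of the 5 genes per length in CPM per kb of merged exons (log axis) in each library, with points shifted sideways so that none is hidden. Esam and F11r lie highest in every library, and Tjp1 lies above Jam3 in wild-type libraries (3.47 to 6.19) and below it in the mutant (1.55 to 2.66). Tjp1 was chosen for its low mutant level, and the mutant means of Tjp1 and Jam3 lie within their spread.

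F11r, Jam3 and Esam had their widest spread within a group between the 2 Cre-negative libraries. F11r was 1.91, Jam2 1.90, Jam3 2.56 and Esam 2.56 times as high in CN-780 as in CN-819, while Tjp1 went the other way at 0.605 times. Of all genes tested, 24.2% were at least 1.5 times as high in CN-780, and 18.4% at least 1.5 times as high in CN-819. The median log2 difference over all genes was -0.007. With 1 library on each side there is no replicate check. CN-780 and CN-819 also differed in the presence of Y-linked transcripts, and the part of this in their differences was not tested.

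Markers of other cells moved between the same libraries. Long-term stem cell markers (12 of 12 found) summed to 2484 CPM in CN-780 and 999 in CN-819, against 1122 to 1551 CPM in wild type and 1398 to 1768 in the mutant. Erythroid markers (12 of 12 found) summed to 1166 and 4424 CPM, against 886 to 1206 and 955 to 1135. Of the stem cell sums, Txnip alone made up 1510 CPM in CN-780 and 555 in CN-819. Slamf1 went the other way, at 15.1 and 20.2 CPM. The median over the 12 stem cell genes of log2 CPM minus its mean over 9 libraries was 0.52 and -0.69. Megakaryocyte markers, a type that carries JAM-A, JAM-C and ESAM, summed to 169 CPM in CN-780 and 307 in CN-819, opposite in order to those genes. Neutrophil markers (8 of 8 found) summed to 320 CPM in CN-780 and 38.6 in CN-819, and B cell markers (9 of 9 found) to 309 and 150 CPM, both in the order of the JAM family genes. Ighm made up 246 CPM of the B cell sum in CN-780 and 113 in CN-819, and Ms4a1 stood at 0.990 and 0.989 CPM. The part of any of these marker lists in the JAM family values was not tested.

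Without CN-819, the values of CN-780 against wild type were 0.07 for F11r, 0.16 for Jam2, 0.44 for Jam3 and 0.38 for Esam on the log2 scale, and none passed. Without CN-780, those of CN-819 were -0.88 for F11r and -0.996 for Esam, which passed in edgeR (adjusted p = 0.0143 and 0.0141), and -0.78 for Jam2 and -0.93 for Jam3, which did not. That fit called 659 of 19301 genes (3.41%), against 0.00% with both libraries. Against CN-819 alone the mutant was also higher by 1.05 for F11r, 1.18 for Esam and 1.22 for Jam3 (edgeR adjusted p = 0.00411, 0.00411 and 0.0247), where 1892 genes were called (9.80%). Each of these fits rests on 1 Cre-negative library, which is assumed to vary like the other groups. The Tjp1 value against wild type was -1.98 without CN-819 and -1.27 without CN-780, negative in both.

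Endothelial cells also express JAM family genes. Among 12 endothelial markers, Cdh5, Sox17, Mmrn2 and Lyve1 did not exceed 0.317 CPM in any library, and Sox17 was at 0 in 8 of 9. Kdr stood at 2.197 to 6.91 CPM, Plvap at 1.10 to 3.10, Stab2 at 0.858 to 2.10, Flt4 at 0.799 to 1.44 and Cldn5 at 0.0366 to 2.89. The list summed to 229 to 279 CPM in wild type, 245 to 270 in the mutant and 219 to 245 in Cre-negative libraries. Most of this came from Pecam1 (140 to 181 CPM), Tek (39.4 to 67.3) and Emcn (16.3 to 33.3), which stem and progenitor cells express too. Their part in the JAM family levels was not tested.

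**Figure D4:**
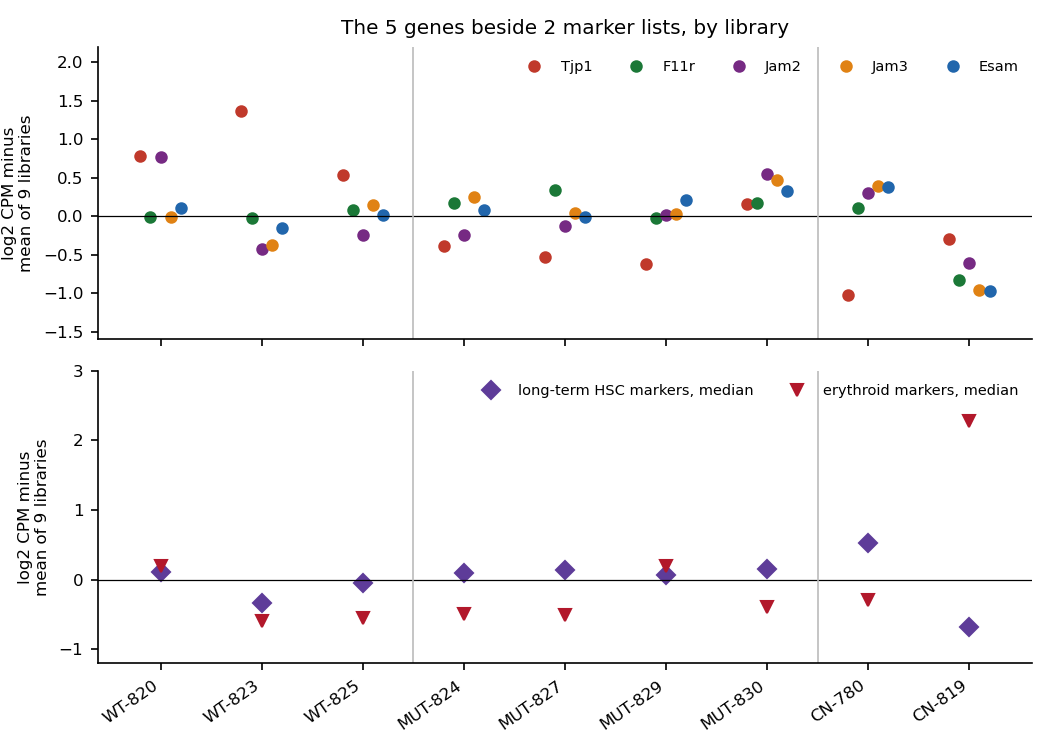
Upper panel: log2 CPM of each of the 5 genes minus its mean over 9 libraries, with points shifted sideways. Lower panel: median of the same quantity over 12 long-term stem cell markers and 12 erythroid markers. In CN-819 the JAM family genes and the stem cell markers (-0.69) are low and the erythroid markers high (2.27), and in CN-780 Tjp1 is lowest while the stem cell markers are highest (0.52).

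The pooled SD of log2 CPM within groups was 0.29 for F11r, 0.41 for Tjp1, 0.41 for Esam, 0.44 for Jam3 and 0.52 for Jam2, against a median of 0.27 over all genes. Wild-type libraries alone gave a coefficient of variation of 3.83% for F11r, 9.25% for Esam, 17.7% for Jam3, 30.9% for Tjp1 and 48.1% for Jam2. The high Tjp1 value in wild type was WT-823, where all 4 JAM family genes were lowest among wild-type libraries. The high Jam2 value was WT-820.

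Likeness of pattern was measured as the root mean square difference between 2 genes' centred log2 levels over the 9 libraries. The closest pair of the 5 genes was Jam3 and Esam, at 0.14. Among 12086 genes compared, Esam was the 6th nearest to Jam3 and Jam3 the 21st nearest to Esam. Without CN-819, a check added after seeing that both genes were lowest there, the distance was again 0.14 but these ranks became 88 and 757. Tjp1 lay at 0.80 from F11r, 0.85 from Jam2, 0.86 from Esam and 0.91 from Jam3, against a median of 0.74 over all genes compared. A gene with an equal level in all 9 libraries would lie at 0.73 from Tjp1. The Tjp1 distances include the group differences for which it was chosen, so they are a description only.

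The 8 genes nearest to Tjp1 were Car12, Rps6ka3, Gbx2, Gcnt4, Cd48, Tespa1, Pmaip1 and Cd244a, at 0.41 to 0.49. None is in the 9 junction lists. Car12 encodes a carbonic anhydrase, Rps6ka3 the kinase RSK2, and Gbx2 a homeobox factor. Cd48 and Cd244a encode a ligand and a receptor of the SLAM family, used as surface markers to divide stem from progenitor cells, and Pmaip1 encodes the cell death protein Noxa. All 8 were highest in WT-823, as was Tjp1. Gcnt4, Tespa1 and Cd244a had every mutant and Cre-negative library below every wild-type library, and the other 5 did not, against 0.748% of all genes. The 8 genes were selected for likeness to Tjp1, which has this separation, so nothing is read from that count. Their group means differed less than those of Tjp1. Rps6ka3 averaged 432 CPM in wild type, 310 in the mutant and 248 in Cre-negative libraries, and Cd48 averaged 178, 116 and 116. By correlation in place of distance, 3 of the 8 (Car12, Rps6ka3 and Cd244a) were again among the nearest 8.

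**Figure D5:**
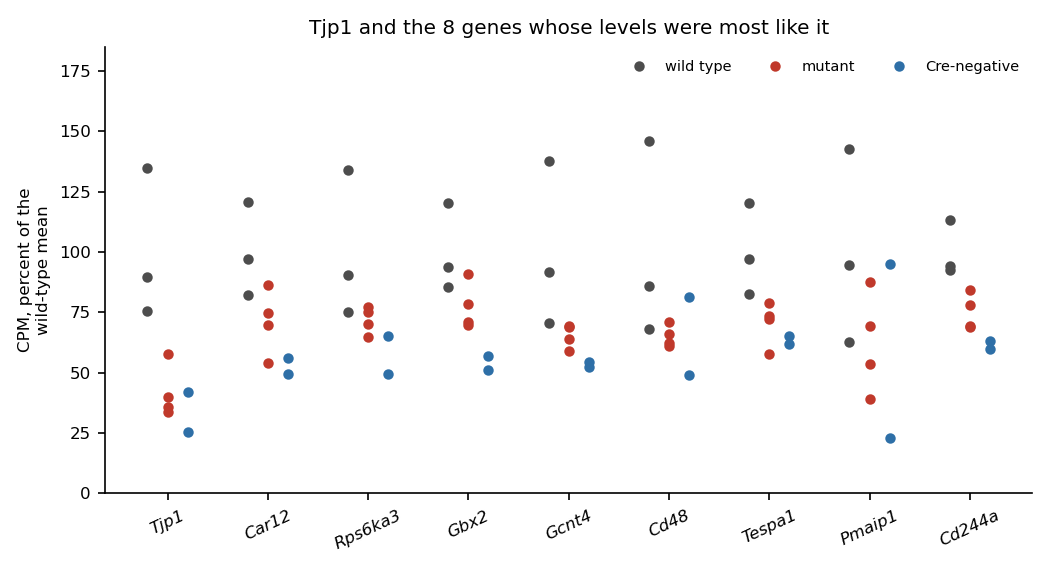
Level in each library as a percent of the wild-type mean (vertical axis) for Tjp1 and the 8 genes whose pattern over 9 libraries was nearest to it. These genes were chosen for this likeness, and Tjp1 has the lowest mutant mean relative to wild type (41.9%).

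Other junction genes were taken from 9 lists, of which 100 of 112 genes were tested. The lists were drawn up with earlier results of these data known. In edgeR 0 of 100 passed in each comparison (0.00% of all genes). In mutant against wild type the log2 fold change was positive for 52 and negative for 48 (median 0.01), against 45.67% positive over all genes. DESeq2 called Cldn4 and, chosen on this contrast, Tjp1, and limma-voom called Itgal.

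Among 14 tight junction scaffold genes, 9 were positive and 5 negative in mutant against wild type (median 0.05). Tjp1, Cgnl1 and Magi1 had the lowest p. Cgnl1, which encodes paracingulin, stood at 0.341 to 0.642 CPM in wild type and 0.439 to 3.07 CPM in the mutant, the highest value being MUT-829. Among 12 tested membrane proteins of tight junctions, 8 were positive and 4 negative (median 0.19).

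Cldn4, a claudin, the family that forms the tight junction strands, stood at 0.168, 0.522 and 0.416 CPM in WT-820, WT-823 and WT-825 and at 3.53, 2.11, 2.16 and 1.67 CPM in MUT-824, MUT-827, MUT-829 and MUT-830. These groups did not overlap, as held for 4.17% of all genes with the mutant higher. CN-780 held 6.13 CPM and CN-819 held 0.440 CPM, within the wild-type range. The log2 fold change of Cldn4 in mutant against wild type was 2.68 (SE 0.77, edgeR adjusted p = 0.998). Cldn15 averaged 7.66 and 11.9 CPM in wild type and mutant, and Cldn7 averaged 0.930 and 0.586 CPM, neither past the test.

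The list of integrin partners of JAM proteins had 3 positive and 6 negative values among 9 genes in mutant against wild type (median -0.08). This list also holds Cd9, which is not an integrin gene and was positive at 0.15. Itgal encodes the alpha chain of LFA-1, a ligand of JAM-A. It stood at 50.3, 52.0 and 52.7 CPM in WT-820, WT-823 and WT-825 and at 39.6, 41.1, 35.4 and 39.2 CPM in MUT-824, MUT-827, MUT-829 and MUT-830. The groups did not overlap, as held for 4.15% of all genes with the mutant lower, and Cre-negative libraries held 38.4 and 51.4 CPM. The log2 fold change was -0.41 (SE 0.11), with an adjusted p of 0.998 in edgeR and 0.0413 in limma-voom with quality weights. Itga4, the alpha chain of VLA-4, averaged 473 ± 93.2 CPM in wild type (SD, n = 3) and 368 ± 23.3 in the mutant (SD, n = 4), and did not pass.

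The other lists described here had medians between -0.14 and 0.12 in mutant against wild type, against -0.02 over all genes. Polarity complex genes had a median of 0.01 (8 of 14 positive), genes of the Rap1 and afadin module -0.04 (3 of 12 positive), adherens junction genes 0.07 (7 of 10 positive) and gap junction genes -0.14 (0 of 4 positive). The CTX and JAM family list had 5 of 8 positive and a median of 0.12. Cttn, which encodes the actin-binding protein cortactin, averaged 49.4 ± 3.37 CPM in wild type (SD, n = 3) and 57.6 ± 2.98 in the mutant (SD, n = 4). The nectin gene Nectin2 averaged 2.84 and 1.99 CPM in the same order. Neither passed in edgeR.

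In Cre-negative against wild type 53 of the 100 junction genes were positive and 47 negative (median 0.01), and in mutant against Cre-negative 57 and 43 (median 0.05). Over all genes, 53.22% and 44.25% were positive in these comparisons, with medians of 0.017 and -0.032. The medians of scaffold genes in these comparisons were -0.01 and 0.14, and those of the CTX and JAM family list -0.10 and 0.13. Without CN-780, edgeR called 6 junction genes between Cre-negative and wild type and 19 between mutant and Cre-negative, each of 100 tested, where 3.41% and 9.80% of all genes were called. Esam, F11r, Cldn5, Mpdz and Afdn, which encodes the junction adaptor afadin, were called in both. Without CN-819 these counts were 1 and 0 of 100, the 1 being Cldn4, where 0.436% and 0.0564% of all genes were called.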

How the data were processed

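Per the labels' protocols, stranded libraries were built from total RNA of LSK cells depleted of ribosomal RNA. The submitters' processing notes name STAR, DESeq2, HTSeq 0.5.3p3 and the build mm10 (GRCm38). Annotation and strand setting: not given in the sources used here. The authors deposited raw counts per Ensembl gene, with 5 rows that name no gene. These rows held 40.5% to 47.3% of all counts and were left out. A second, scaled table was not used. Values of 1 gene and 1 junction list are not reported here.

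Symbols, coordinates and exon lengths came from GENCODE M21 (GRCm38), which matched 37607 of 39179 identifiers. Promoters came from RefSeq (GRCm38.p6). No pair of libraries within a group agreed within sampling noise (lowest chi-square/df 13.4).

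Genes were kept by filterByExpr (18576), scaled by TMM and tested with the robust quasi-likelihood test of edgeR 4.0.16 on all 9 libraries, two-sided, with Benjamini-Hochberg adjustment at 0.05. SE was taken from the log2 fold change and its F statistic. DESeq2 1.42.0 and limma 3.58.1 ran in R 4.3.3. EdgeR fitting was tested on simulated data. The members, the 9 junction lists and the 11 marker lists were chosen with earlier results of these data known. Named genes were the 5 members, up to 3 genes of each junction list with the lowest p in mutant against wild type (those not described here did not pass), and the 8 nearest to Tjp1 among genes averaging 1 CPM or more whose symbol is no clone name.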

Additional observations from a re-analysis of the deposited data

Results flagged for a closer look

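Among 29 junction genes examined over the 4 mutant libraries, 4 had 1 library far from the other 3 by Dixon's gap test, set to flag about 5% of groups by chance. Most of these genes were picked for a low p in mutant against wild type, which uses the same libraries. The share flagged over all genes was not taken, so nothing is read from the count. Scrib, a polarity gene, stood at 73.7 CPM in MUT-824 against 56.5 to 59.1 in the others. In the same library the cadherin gene Cdh2 stood at 0.559 CPM against 0.141 to 0.152, and the connexin gene Gja5 at 0.280 CPM against 0.141 to 0.161, both near the detection limit. Nectin3 stood at 1.82 CPM in MUT-829 against 2.62 to 2.79. None of the 5 members met this criterion.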

How the results depend on the processing

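Tjp1 stayed negative against wild type under all 17 alternatives, from -1.44 to -0.95 for the mutant and from -1.98 to -1.27 for Cre-negative on the log2 scale. F11r, Jam3 and Esam stayed positive in mutant against wild type, whereas Jam2 became 0.34 (limma-voom) and ranged from -0.25 to 0.45 with each library left out. Over the left-out libraries, Cre-negative against wild type ranged from -1.98 to -1.27 for Tjp1, -0.88 to 0.074 for F11r, -0.78 to 0.25 for Jam2, -0.93 to 0.44 for Jam3 and -0.996 to 0.38 for Esam. Mutant against Cre-negative ranged from 0.093 to 1.05 for F11r, -0.19 to 0.75 for Jam2, -0.15 to 1.22 for Jam3 and -0.20 to 1.18 for Esam. The counts of called genes ranged from 0 to 659 and from 0 to 1892 in these comparisons, and those of junction genes from 0 to 6 and from 0 to 19, the nonzero counts all coming from fits with 1 Cre-negative library. DESeq2 called 36 genes, 2 of them junction genes, between mutant and wild type, 59 and 2 between Cre-negative and wild type, and 21 between mutant and Cre-negative. Limma-voom called 30 genes, 1 of them a junction gene, between mutant and wild type. The cause of these differences was not tested. Of 216 list medians under other settings 14 changed sign, all at most 0.12 from 0 as reported, and of 243 with a library left out 40 did. No paired analysis was possible because the groups share no library number.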

Other observations

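Cldn5, a claudin known from endothelium and picked out here after its values were seen, stood at 2.89 CPM in CN-780 and 0.0366 CPM in CN-819. Wild-type libraries lay between 0.823 and 0.875 CPM and mutant libraries between 0.530 and 1.24 CPM. Cldn4 was likewise high in CN-780 (6.13 CPM) and low in CN-819 (0.440 CPM). For both claudins the Cre-negative mean therefore describes neither library.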
